A study of Homo sapiens with 72 samples.

Results

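The 9 genes described here encode the proteins that find, verify and cut out DNA damage in global genome nucleotide excision repair: XPC, RAD23B, CETN2, DDB1, DDB2, XPA, ERCC1, ERCC4 and ERCC5. They were taken by symbol from a table of 19324 genes, and all 9 passed the filter on low counts. No measured value entered the rule, but the set was chosen with earlier results of these data known. They were followed by sequencing of polyadenylated RNA in 4 lines of HEK293 Flp-In T-REx, an embryonic human kidney line made with adenovirus DNA. The lines were a knockout of CSB (CSB_KO, 1 line), a pair of STK19 knockouts (STK19_KO1 and STK19_KO2) and the unedited line (WT). Each line had 6 conditions of 3 libraries, which makes 24 groups and 72 libraries. The conditions were untreated cells (0 h), cells taken 3 h after ultraviolet (UV) irradiation, and cells that were irradiated, left to recover, and then kept in ATRi (VE-821 at 3 µM) or in DMSO, its solvent, until 4 h or 20 h. VE-821 inhibits ATR, a kinase that signals DNA damage and stalled replication. Whether the 4 h and 20 h labels run from the UV or from adding ATRi is not settled by the labels, and the sources used here give no UV dose. No unirradiated group beyond 0 h was analysed here, so UV, time in culture and solvent cannot be told apart in a change against 0 h. The labels do not say whether replicates were separate cultures, so p-values measure the spread between these libraries only.

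Nucleotide excision repair removes bulky lesions such as the pyrimidine dimers that UV makes. In its global genome branch, DDB2 binds the lesion as part of UV-DDB, with DDB1 as its partner and as the adaptor to a cullin ubiquitin ligase. XPC then senses the distorted helix in a complex with RAD23B and centrin 2, the product of CETN2. TFIIH opens the DNA, XPA verifies the damage, the nuclease ERCC1-XPF (XPF is the product of ERCC4) cuts on the 5′ side, and XPG, the product of ERCC5, cuts on the 3′ side. The other branch starts where RNA polymerase II stalls in a gene and needs CSB, the product of ERCC6, and STK19 has been assigned to it. XPA, ERCC1-XPF and XPG serve both branches. DDB2 and XPC are known targets of p53.

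The deposited table places the members on GRCh38 as whole genes, exons and introns together. The UV-DDB genes are DDB1 (ENSG00000167986) on chromosome 11 at 61299451 to 61342596, minus strand, and DDB2 (ENSG00000134574) on chromosome 11 at 47214465 to 47239217, plus strand. The genes of the XPC complex are XPC (ENSG00000154767) on chromosome 3 at 14145147 to 14178621, minus strand, RAD23B (ENSG00000119318) on chromosome 9 at 107283137 to 107332192, plus strand, and CETN2 (ENSG00000147400) on chromosome X at 152826994 to 152830757, minus strand. The verifying factor is XPA (ENSG00000136936) on chromosome 9 at 97674909 to 97697340, minus strand. The nuclease genes are ERCC1 (ENSG00000012061) on chromosome 19 at 45407334 to 45478828, minus strand, ERCC4 (ENSG00000175595) on chromosome 16 at 13920138 to 13952348, plus strand, and ERCC5 (ENSG00000134899) on chromosome 13 at 102845831 to 102875995, plus strand. No 2 members overlap, but 4 of the 9 overlap another gene of the table. XPC overlaps a gene without a symbol on the opposite strand by 3106 bases. The levels of that gene are not given, and its part in the XPC values was not tested.

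The promoters of 4 members, chosen after their values were seen, are shown because their RNAs moved in different directions after UV (XPC and CETN2 up, RAD23B down) or differed in direction between lines (DDB2), and because their short motifs differ. Each is the RefSeq window (GRCh38.p14) of 250 bases before and 50 after the start site, read 5′ to 3′ on the gene's strand. The capitals mark every match, on either strand, to any of 9 motifs: the SP1 box (GGGCGG), the ETS core (CCGGAAG), the NRF1 palindrome, the CCAAT box (CCAAT), the E-box (CACGTG), AP-1 (TGANTCA), the CRE half-site (TGACG), the TATA box (TATAAA) and the p53 half-site consensus. DDB2 lies on chr11:47214724-47215023 (plus strand), XPC on chr3:14178552-14178851 (minus strand), RAD23B on chr9:107283029-107283328 (plus strand) and CETN2 on chrX:152830708-152831007 (minus strand). Their start sites lie 32, 182, 0 and 20 bases from the start of the principal transcript, in the same order.
DDB2: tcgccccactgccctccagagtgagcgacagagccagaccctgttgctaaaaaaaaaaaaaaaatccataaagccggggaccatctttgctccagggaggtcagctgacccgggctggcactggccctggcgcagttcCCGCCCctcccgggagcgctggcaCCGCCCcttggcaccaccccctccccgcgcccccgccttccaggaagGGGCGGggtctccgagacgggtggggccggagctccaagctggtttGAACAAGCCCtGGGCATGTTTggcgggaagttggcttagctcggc
XPC: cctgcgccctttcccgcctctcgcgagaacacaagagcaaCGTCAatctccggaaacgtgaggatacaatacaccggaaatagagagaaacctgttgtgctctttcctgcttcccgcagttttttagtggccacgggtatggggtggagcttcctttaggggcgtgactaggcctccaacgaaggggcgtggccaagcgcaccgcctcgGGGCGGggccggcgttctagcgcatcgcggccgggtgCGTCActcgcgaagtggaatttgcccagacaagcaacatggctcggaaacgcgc
RAD23B: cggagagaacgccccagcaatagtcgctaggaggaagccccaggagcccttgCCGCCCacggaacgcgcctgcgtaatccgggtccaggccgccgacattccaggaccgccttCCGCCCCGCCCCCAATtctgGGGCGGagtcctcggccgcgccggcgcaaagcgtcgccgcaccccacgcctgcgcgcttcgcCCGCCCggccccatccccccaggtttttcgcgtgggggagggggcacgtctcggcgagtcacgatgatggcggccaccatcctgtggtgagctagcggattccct
CETN2: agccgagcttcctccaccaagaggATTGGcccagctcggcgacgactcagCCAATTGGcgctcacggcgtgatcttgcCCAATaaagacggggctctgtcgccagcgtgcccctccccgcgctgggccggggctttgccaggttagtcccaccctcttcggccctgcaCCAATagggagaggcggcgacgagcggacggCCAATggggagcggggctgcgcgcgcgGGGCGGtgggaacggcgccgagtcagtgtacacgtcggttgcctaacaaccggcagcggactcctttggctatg
The DDB2 window held 2 matches to the p53 half-site consensus, separated by 1 base, with their first bases 5 and 16 bases after the start site, and 3 SP1 boxes. A match to this consensus was present in 6.63% of 35116 RefSeq windows of the same length. No match to it was found in the windows of the other 8 members, which says only that these letters are not there. The XPC window held 1 SP1 box and 2 CRE half-sites, and these motifs occurred in 45% and 24.6% of all windows. The RAD23B window held 5 SP1 boxes, 2 of which overlap, and 1 CCAAT box. The CETN2 window held 6 CCAAT boxes, 2 of them overlapping on opposite strands, and 1 SP1 box, where 34.6% of all windows had at least 1 CCAAT box.

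The windows of the 3 nuclease genes share a motif that none of the other 6 windows holds. It was picked out of the 9 searched after the matches were seen, and its part in their RNA levels was not tested. For each gene, 30 bases around it are shown with the ETS core in capitals. The stretches are chr19:45423902-45423931 (minus strand) for ERCC1, chr16:13920140-13920169 (plus strand) for ERCC4 and chr13:102846020-102846049 (plus strand) for ERCC5.
ERCC1: gggccagagaggCCGGAAGtgctgcgagcc
ERCC4: ttcggctgcgacCCGGAAGagcttccatgg
ERCC5: ggacctgtctttCTTCCGGgaggcggtgac
The core starts 2 bases before the start site of the window in ERCC1 and ERCC4. In ERCC5 it starts at the start site of the window and reads on the opposite strand. These start sites lie 448, 3 and 1188 bases from the start of the principal transcript in ERCC1, ERCC4 and ERCC5. The core was present in 10.3% of all windows. The other motifs searched were NRF1 (1.24% of windows), the E-box (7.26%), AP-1 (7.71%) and the TATA box (11.5%), and none of these 4 was found in any member's window.

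The libraries held 36.5 M to 212.9 M counts, with a median of 56.3 M, and 15470 genes were tested. All 72 pairs of replicates differed by more than sampling noise, with a mean chi-square of 3.64 to 188.38 per gene. In 5 cases a library lay apart from both others of its group (chi-square over 20 per gene in both pairs): the first replicate of WT in the 0 h, 3 h and 4 h DMSO groups, and for STK19_KO1 the third replicate of the 3 h group and the first of the 4 h ATRi group. ERCC6 RNA averaged 6.97 ± 0.611 CPM (counts per 1 M counts of the library, TMM-scaled) in CSB_KO at 0 h and 23.5 ± 0.473 CPM in WT (SD, n = 3 each), a log2 difference of -1.77 ± 0.08 (SE; edgeR, adjusted p = 4.01e-27). STK19 RNA did not pass the test in STK19_KO1 or STK19_KO2 against WT (edgeR, adjusted p = 0.187 and 0.0882), so it does not check their labels. The cells were checked against marker lists. All 4 neural-type markers that HEK293 is known to express passed 1 CPM in WT at 0 h, with a sum of 916 to 1460 CPM over all libraries. Of 4 kidney tubule markers measured, 1 did (LRP2), and SLC12A1, SLC12A3 and AQP2 stayed below 1 CPM in every library. Of 4 fibroblast markers 1 did (COL1A1, with a list sum of 3.59 to 18.4 CPM), and the 4 blood markers summed to 0 to 0.613 CPM. In these bulk samples fewer cells and less RNA per cell cannot be told apart, and all values are relative abundances, because no external standard was added.

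All changes below are on TMM scaling, so they are changes relative to the bulk of the other genes. With library totals in place of TMM, an alternative added after the values were seen, the median log2 change of all tested genes was shifted by -0.31 in CSB_KO at 20 h in DMSO against 0 h. In CSB_KO it was shifted by -0.12 at 3 h and by -0.13 at 4 h in DMSO, and in WT by -0.20 at each of these times. The shift was -0.18 in CSB_KO and 0.26 in WT for 20 h against 4 h in DMSO, and -0.11 in WT for ATRi at 20 h. In the other comparisons of 2 groups it lay between -0.07 and 0.06. Calls of members that ended, appeared or turned with library totals are given beside many of the values, but not all are named. For member counts with library totals, the share of all tested genes called on that scaling is not given, so they lack a background.

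Every library held at least 429 raw counts of each member. Between genes, levels were compared per kb of the principal transcript. In WT at 0 h the order was DDB1 (98.9 CPM per kb), RAD23B (50.9), CETN2 (30.5), XPC (12.1), DDB2 (12.1), XPA (8.56), ERCC1 (7.73), ERCC5 (7.34) and ERCC4 (3.92). XPC and DDB2 did not differ beyond their SDs of 0.0953 and 0.143 CPM per kb, nor did XPA and ERCC1 or ERCC1 and ERCC5, whose SDs lay between 0.432 and 0.878, while XPA lay above ERCC5 by more than either SD. With all annotated exons as the length, RAD23B stood above DDB1, at 45.5 against 31.9 CPM per kb. On that length DDB2, at 4.62 CPM per kb, stood below XPC (9.665), XPA (6.61) and ERCC1 (5.31). The XPC partners RAD23B and CETN2 were thus measured well above XPC itself, and the nuclease transcript ERCC4 was the lowest on either length. In CSB_KO at 20 h in DMSO the order was changed, with CETN2 at 49.5 CPM per kb above RAD23B at 20.8.

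Across the 24 group means the members differed in how far they moved. DDB1 was the steadiest, between 441.4 and 564.0 CPM, a ratio of 1.28 between the highest and the lowest group. DDB2 was the most variable, between 10.3 CPM in STK19_KO2 at 20 h in DMSO and 47.9 CPM in WT at 20 h in ATRi, a ratio of 4.66. RAD23B came next with a ratio of 3.17 (66.3 CPM in CSB_KO at 20 h in ATRi and 209.8 CPM in WT at 0 h), then ERCC4 with 2.83 and XPC with 2.65. The other 4 lay between 2.06 and 2.29. The median coefficient of variation within a group was 1.77% for DDB1 and 6.84% for XPA, whose count of 429 was the lowest of any member in any library.

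**Figure D1:**
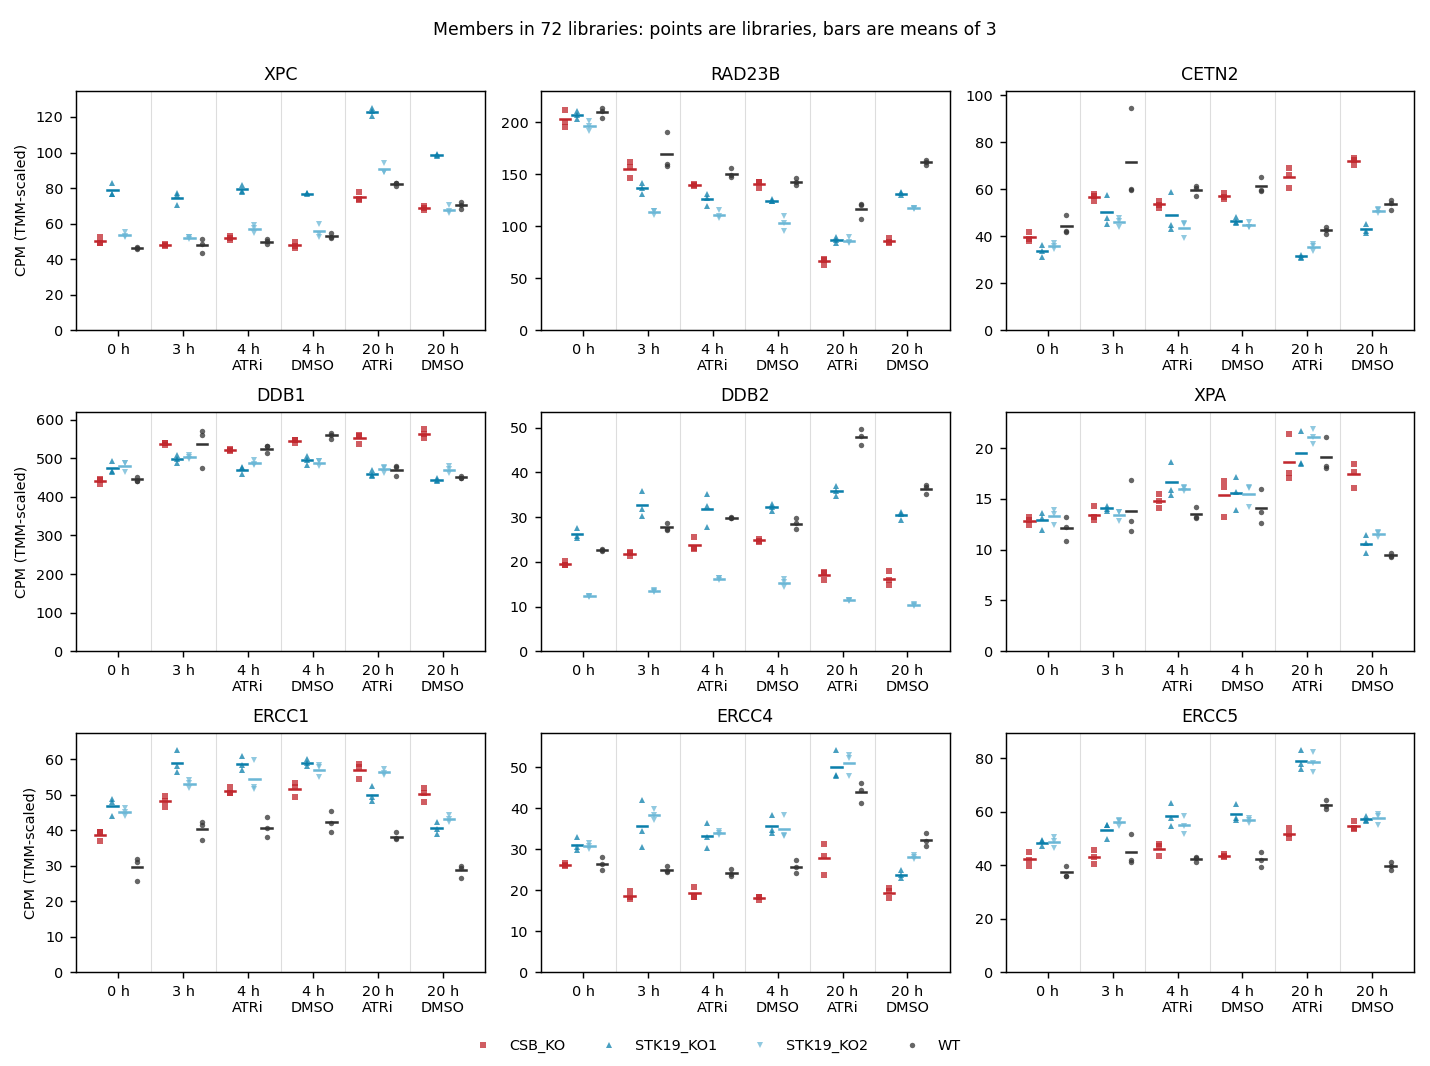
CPM (TMM-scaled) of the 9 members in all 72 libraries, by condition on the x axis, with CSB_KO, STK19_KO1, STK19_KO2 and WT side by side; points are libraries and bars are means of 3. RAD23B is highest at 0 h in every line, DDB2 differs between the lines at 0 h, and the WT library at 94.4 CPM of CETN2 at 3 h is replicate 1, which lay apart.

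The first comparison asked how the knockouts differed from WT before any UV. XPC, ERCC1 and ERCC5 were higher in all 3 knockout lines, and DDB2 differed from WT in all 3 but not in one direction. In CSB_KO 3 of the 9 members were higher and 1 was lower than in WT, where 19.1% and 15.7% of all tested genes were called in those directions. In STK19_KO1 6 were higher and 1 lower (29.5% and 19.2% of tested genes), and in STK19_KO2 5 were higher and 2 lower (26.6% and 20.7%). With library totals XPC in CSB_KO (0.12) and DDB1 and ERCC4 in STK19_KO1 (0.02 and 0.16) did not pass, and of all called genes in STK19_KO1 47.7% were higher, where with TMM 60.5% were.

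Of the damage sensors, DDB2, the lesion-binding subunit, had 20.3, 19.3 and 19.3 CPM in CSB_KO, 25.9, 27.5 and 25.4 CPM in STK19_KO1 and 12.42, 12.44 and 12.04 CPM in STK19_KO2, against 22.4, 22.9 and 22.5 CPM in WT. No library of one line reached into the range of another. The log2 differences from WT were -0.20 ± 0.06 in CSB_KO, 0.21 ± 0.06 in STK19_KO1 and -0.88 ± 0.06 in STK19_KO2 (edgeR, adjusted p = 0.00396, 0.00181 and 5.28e-19). Set directly against STK19_KO1, a comparison added after the values were seen, STK19_KO2 was lower in DDB2 and XPC, with log2 differences of -1.09 ± 0.06 and -0.55 ± 0.04 (edgeR, adjusted p = 1.16e-22 and 8.76e-16). None of the other 7 members was called in that comparison, where 33.2% of tested genes were. The 2 lines that share a targeted gene thus stood on opposite sides of WT for DDB2. DDB1 differed from WT by at most 0.11 ± 0.04, called in both STK19 knockouts, and its call in STK19_KO1 ended when any 1 of 3 libraries was left out (log2 difference of 0.06 without STK19_KO1 replicate 1).

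XPC, the helix-distortion sensor, had 52.3, 48.8 and 49.2 CPM in CSB_KO, 82.9, 76.6 and 76.7 CPM in STK19_KO1 and 52.65, 55.3 and 52.95 CPM in STK19_KO2, against 46.7, 46.5 and 46.0 CPM in WT. Every knockout library lay above every WT library, with STK19_KO1 far above the rest. The log2 differences were 0.11 ± 0.04, 0.76 ± 0.04 and 0.21 ± 0.04 (edgeR, adjusted p = 0.0474, 1.41e-21 and 8.28e-05), and the small one in CSB_KO was lost when any of 5 libraries was left out (0.08 without CSB_KO replicate 1). CETN2, the centrin of the complex, was lower in both STK19 knockouts, at 33.8 ± 2.57 CPM in STK19_KO1 and 35.8 ± 1.38 CPM in STK19_KO2, against 44.3 ± 3.95 CPM in WT (SD, n = 3 each). These groups did not overlap, and the log2 differences were -0.39 ± 0.10 and -0.31 ± 0.10 (edgeR, adjusted p = 0.00055 and 0.00554). Without WT replicate 1, one of the libraries that lay apart, the difference in STK19_KO2 was -0.23 and did not pass (edgeR, adjusted p = 0.0619). RAD23B stood between 196.3 and 206.8 CPM in the 3 knockouts and at 209.8 CPM in WT, and XPA between 12.9 and 13.3 CPM in the knockouts and at 12.1 CPM in WT. Neither gene was called in any line.

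All 3 nuclease genes were higher in both STK19 knockouts. ERCC1, the partner that holds XPF, had 39.5, 37.1 and 39.4 CPM in CSB_KO, 43.9, 48.9 and 47.9 CPM in STK19_KO1 and 45.1, 44.0 and 46.3 CPM in STK19_KO2, against 25.7, 31.9 and 31.1 CPM in WT. Every knockout library lay above every WT library, and the log2 differences were 0.38 ± 0.06, 0.66 ± 0.06 and 0.61 ± 0.06 (edgeR, adjusted p = 6.05e-07, 4.22e-14 and 8.04e-13). The deposited ERCC1 interval overlaps 2 genes on the opposite strand, POLR1G and FOSB. The labels name a directional kit but not the strand setting used in counting, so reads of ERCC1 and these genes may be mixed, and both were also higher in the knockouts (POLR1G by 0.32, 0.52 and 0.36, FOSB by 0.45, 1.11 and 0.41 on the log2 scale, in the same order of lines). Their part in the ERCC1 values was not tested. ERCC5, the XPG gene, was higher than in WT, with log2 differences of 0.18 ± 0.06 for CSB_KO, 0.38 ± 0.06 for STK19_KO1 and 0.39 ± 0.06 for STK19_KO2 (edgeR, adjusted p = 0.0186, 6.27e-07 and 3.76e-07). In CSB_KO its 3 libraries, at 39.6 to 44.9 CPM, overlapped those of WT, at 35.9 to 39.8 CPM, and leaving out any 1 of 3 libraries ended the call (0.13 without CSB_KO replicate 1). ERCC4 stood at 31.1 ± 1.66 CPM in STK19_KO1 and 30.8 ± 0.725 CPM in STK19_KO2, against 26.5 ± 1.64 CPM in WT (SD, n = 3 each), without overlap. Its differences of 0.23 ± 0.08 and 0.22 ± 0.08 (edgeR, adjusted p = 0.0101 and 0.0146) were lost without WT replicate 2 (0.19 and 0.18), and also without replicate 3 of the knockout line (0.19 and 0.20).

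**Figure D2:**
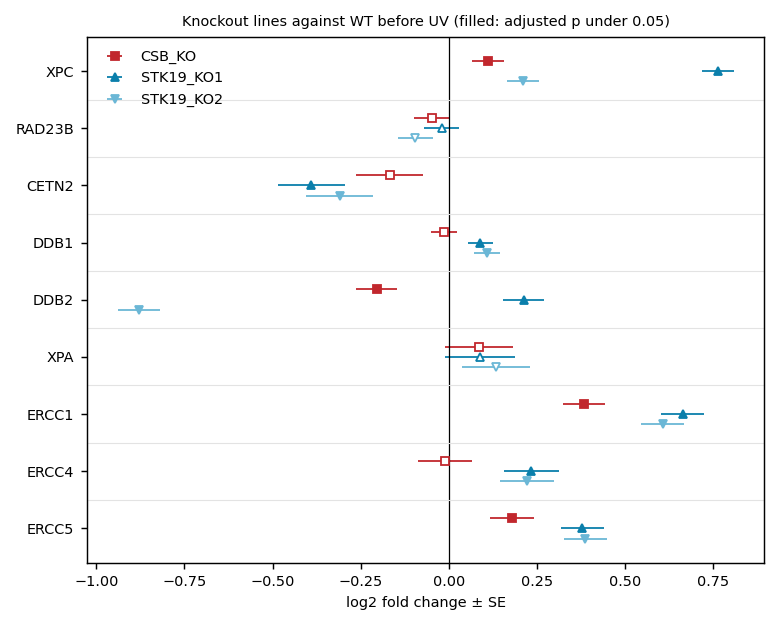
Log2 fold change ± SE of each member in CSB_KO, STK19_KO1 and STK19_KO2 against WT at 0 h; filled symbols passed an adjusted p of 0.05. DDB2 runs between -0.88 in STK19_KO2 and 0.21 in STK19_KO1, and ERCC1 lies right of 0 in all 3 lines.

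The next comparisons asked how the members responded in the first hours after UV. In every line RAD23B fell and CETN2, DDB2 and ERCC1 rose, at 3 h as well as at 4 h in DMSO, while XPC did not pass the test in any line at 3 h. With library totals the rises of CETN2 and ERCC1 and the fall of RAD23B were still called in every line, but DDB2 at 3 h was called only in STK19_KO1. At 3 h 4 of the 9 members rose and 2 fell in CSB_KO, against a background of 32.0% and 29.3% of all tested genes. In STK19_KO1 4 rose and 1 fell (29.9% and 30.6% of tested genes), in STK19_KO2 5 rose and 1 fell (29.1% and 28.5%), while WT had 5 that rose and 1 that fell (33.6% and 28.8%). At 4 h in DMSO 5 rose and 2 fell in CSB_KO (33.6% and 30.2% of tested genes), 6 rose and 1 fell in STK19_KO1 (27.9% and 30%), 6 rose and 1 fell in STK19_KO2 (31.6% and 29.8%), while WT had 7 called higher and 1 lower (35% and 31.3%), with XPC and ERCC5 among the 7, which turned with library totals. The comparisons of one line share their 0 h libraries. With library totals the members that rose and fell numbered 3 and 3 in CSB_KO, 3 and 2 in STK19_KO1, 4 and 1 in STK19_KO2 and 2 and 3 in WT at 3 h. They numbered, at 4 h in DMSO, 4 and 3 in CSB_KO, 5 and 1 in STK19_KO1, 4 and 1 in STK19_KO2 and 4 and 2 in WT. The share of called genes that were higher was 38.8% at 3 h and 40.4% at 4 h in CSB_KO with library totals (52.2% and 52.7% with TMM), and 33.4% and 35.9% in WT (53.8% and 52.7% with TMM). In STK19_KO1 it was 44.2% and 45.4% with library totals (49.4% and 48.2% with TMM). In STK19_KO2 it was 47.3% and 46.7% (50.5% and 51.5% with TMM).

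RAD23B, which keeps XPC from degradation, had 161.9, 146.7 and 157.2 CPM at 3 h in CSB_KO, against 195.8, 200.1 and 212.4 CPM at 0 h. In STK19_KO1 it had 142.0, 130.7 and 137.1 CPM at 3 h, against 207.1, 202.8 and 210.5 CPM at 0 h. In STK19_KO2 it had 114.7, 110.5 and 114.7 CPM at 3 h, against 191.4, 201.1 and 196.4 CPM at 0 h. The libraries of the 2 times did not overlap in these lines, nor in WT, where RAD23B had 190.7, 159.9 and 158.0 CPM at 3 h, against 213.6, 204.4 and 211.3 CPM at 0 h. The WT library at 190.7 CPM is the replicate that lay apart. The log2 changes were -0.38 ± 0.05 in CSB_KO, -0.60 ± 0.05 in STK19_KO1, -0.79 ± 0.05 in STK19_KO2 and -0.31 ± 0.05 in WT (edgeR, largest adjusted p = 3.12e-07). The mean fall in the STK19 knockouts exceeded that in WT by -0.39 ± 0.06 (edgeR interaction, adjusted p = 3.03e-06), and the test for CSB_KO against WT did not pass (-0.08 ± 0.07, adjusted p = 0.552 by edgeR). The falls at 4 h in DMSO were -0.53 ± 0.05 in CSB_KO, -0.73 ± 0.05 in STK19_KO1, -0.93 ± 0.05 in STK19_KO2 and -0.55 ± 0.05 in WT.

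XPC was not called at 3 h, with log2 changes of -0.07, -0.08, -0.05 and 0.04 in CSB_KO, STK19_KO1, STK19_KO2 and WT, and without WT replicate 1 at 3 h the WT value was 0.11 and passed (edgeR, adjusted p = 0.0345). With library totals XPC was called lower at 3 h in CSB_KO, STK19_KO1 and WT (-0.19, -0.13 and -0.16). At 4 h in DMSO its changes in the 3 knockouts were -0.07, -0.03 and 0.05, none called, while in WT it had 52.4, 51.9 and 54.7 CPM at 4 h against 46.7, 46.5 and 46.0 CPM at 0 h, a log2 change of 0.19 ± 0.04 (edgeR, adjusted p = 0.000155) that was -0.01 and not called with library totals (edgeR, adjusted p = 0.905), so no direction is given for it. With library totals XPC in CSB_KO was called lower at 4 h (-0.20). The knockout changes were below the WT change by -0.26 ± 0.06 in CSB_KO and -0.18 ± 0.05 in the STK19 knockouts (edgeR interactions, adjusted p = 0.00212 and 0.00907), and neither difference passed with library totals (-0.19 and -0.02; edgeR, adjusted p = 0.0583 and 0.863).

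CETN2 rose at 3 h to 56.7 ± 1.49 CPM in CSB_KO, against 39.5 ± 1.99 CPM at 0 h, to 50.1 ± 6.39 CPM in STK19_KO1, against 33.8 ± 2.57 CPM, and to 46.0 ± 1.77 CPM in STK19_KO2, against 35.8 ± 1.38 CPM (SD, n = 3 each). In WT its libraries had 94.4, 60.0 and 59.6 CPM at 3 h, against 48.9, 41.9 and 42.2 CPM at 0 h. No libraries of the 2 times overlapped in any line, and the log2 changes were 0.53 ± 0.09, 0.56 ± 0.10, 0.36 ± 0.09 and 0.69 ± 0.09 (edgeR, largest adjusted p = 0.000804). The library at 94.4 CPM, replicate 1, lay apart, and without it the WT change was 0.43 (edgeR, adjusted p = 3.13e-06).

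Of the UV-DDB subunits, DDB2 rose in all 4 lines and DDB1 rose in CSB_KO and WT. DDB2 rose at 3 h to 21.8 ± 0.397 CPM in CSB_KO, against 19.6 ± 0.557 CPM at 0 h, to 32.6 ± 2.89 CPM in STK19_KO1, against 26.2 ± 1.10 CPM, to 13.6 ± 0.210 CPM in STK19_KO2, against 12.3 ± 0.225 CPM, and to 27.7 ± 0.809 CPM in WT, against 22.6 ± 0.267 CPM (SD, n = 3 each). The log2 changes of 0.15, 0.32, 0.14 and 0.29 correspond to 1.11-, 1.24-, 1.10- and 1.23-fold. With library totals those in CSB_KO, STK19_KO2 and WT were 0.03, 0.11 and 0.09 and did not pass (edgeR, adjusted p = 0.67, 0.104 and 0.167). Those in CSB_KO and STK19_KO2 did not hold when single libraries were left out (any of 3 libraries in CSB_KO, with a value of 0.14, and any of 6 in STK19_KO2, with values of 0.13 to 0.15). DDB2 was up by 0.30 to 0.34 in all 4 lines at 4 h in DMSO, and the interaction tests against WT did not pass for CSB_KO or the STK19 knockouts (edgeR, adjusted p = 1 and 0.81). DDB1 rose in CSB_KO by 0.28 ± 0.04 and in WT by 0.27 ± 0.04 at 3 h, and by 0.30 ± 0.04 and 0.33 ± 0.04 at 4 h in DMSO. With library totals the DDB1 rise in WT at 3 h was 0.07 and did not pass (edgeR, adjusted p = 0.177). In the STK19 knockouts it changed by 0.02 to 0.07 at these times and was not called, although without the 5 libraries that lay apart its 0.09 at 3 h in STK19_KO1 passed (edgeR, adjusted p = 0.00694). The mean change in these knockouts was below that in WT by -0.20 ± 0.04 at 3 h and -0.28 ± 0.04 at 4 h (edgeR interactions, adjusted p = 0.000679 and 1.52e-06). With library totals these interactions were -0.04 and -0.12 and did not pass (edgeR, adjusted p = 0.661 and 0.0698). The DDB1 interval overlaps TKFC on the opposite strand, which rose at 3 h by 0.51 to 0.56 in all 4 lines. TKFC averaged at most 52.9 CPM in any group, and its part in the DDB1 values was not tested.

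XPA, the verifying factor, was not called at 3 h in any line. At 4 h in DMSO it was called higher in all 4 lines, by 0.26 ± 0.10, 0.28 ± 0.10, 0.22 ± 0.10 and 0.22 ± 0.10 in CSB_KO, STK19_KO1, STK19_KO2 and WT (edgeR, adjusted p between 0.0136 and 0.0412). In every line the call was lost when 1 of 2 to 4 libraries was left out. The values then were 0.20 to 0.24 in CSB_KO, 0.20 and 0.22 in STK19_KO1, 0.18 to 0.23 in STK19_KO2 and 0.12 to 0.23 in WT, where 0.12 was without replicate 1 at 4 h, which lay apart. With library totals the XPA calls in CSB_KO, STK19_KO2 and WT ended (0.13, 0.17 and 0.02).

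The nuclease genes split. ERCC1 rose at 3 h to 48.2 ± 1.51 CPM in CSB_KO, against 38.7 ± 1.38 CPM at 0 h, to 58.9 ± 3.15 CPM in STK19_KO1, against 46.9 ± 2.64 CPM, to 53.1 ± 1.04 CPM in STK19_KO2, against 45.1 ± 1.14 CPM, and to 40.3 ± 2.82 CPM in WT, against 29.6 ± 3.36 CPM (SD, n = 3 each). The libraries did not overlap, and the changes were 0.32, 0.33, 0.24 and 0.45, with an SE of 0.06 each (edgeR, largest adjusted p = 0.000483). FOSB and POLR1G, which overlap it, rose at 3 h as well, FOSB by 3.12, 2.4, 3.33 and 3.08 and POLR1G by 0.33, 0.51, 0.50 and 0.49 on the log2 scale, in the same order of lines. ERCC4 went in opposite directions. It fell in CSB_KO, with 19.8, 17.9 and 18.3 CPM at 3 h against 26.1, 26.8 and 26.0 CPM at 0 h, a change of -0.49 ± 0.08, and rose in STK19_KO2, with 39.8, 38.4 and 37.2 CPM at 3 h against 30.1, 30.9 and 31.5 CPM at 0 h, a change of 0.32 ± 0.08 (edgeR, adjusted p = 2.47e-07 and 0.000287). In STK19_KO1 the rise of 0.20 ± 0.08 rested on replicate 1 at 3 h, at 42.0 CPM, and was 0.07 without it (edgeR, adjusted p = 0.47). It was also lost without replicate 1 or 2 at 0 h (0.17 and 0.18) and with library totals (0.15). In WT ERCC4 had 26.0, 24.7 and 24.4 CPM at 3 h, against 28.1, 24.8 and 26.4 CPM at 0 h, and was not called, but with library totals it was called lower at 3 h and 4 h (-0.29 and -0.24). Against WT, the change was lower in CSB_KO by -0.41 ± 0.11 and higher in the STK19 knockouts by 0.34 ± 0.09 (edgeR interactions, adjusted p = 0.00831 and 0.00533). With library totals the CSB_KO difference was -0.33 and did not pass (edgeR, adjusted p = 0.0648). The ERCC4 change in CSB_KO at 4 h in DMSO was -0.54 ± 0.08. The changes at 4 h in STK19_KO1 and STK19_KO2 were 0.20 ± 0.08 and 0.19 ± 0.08, calls that were lost without any 1 of 3 libraries each (0.12 without STK19_KO2 replicate 1 at 4 h) and with library totals (0.17 and 0.14).

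ERCC5 was called at 0.20 ± 0.06 in STK19_KO2 and 0.27 ± 0.06 in WT at 3 h and was not called in CSB_KO or STK19_KO1, where it changed by 0.03 and 0.13. The WT value was 0.16 without replicate 1 at 3 h (edgeR, adjusted p = 0.0197), and without the 5 libraries that lay apart STK19_KO1 passed at 0.18 (edgeR, adjusted p = 0.00307). At 4 h in DMSO it rose by 0.29 ± 0.06 in STK19_KO1 and 0.22 ± 0.06 in STK19_KO2 and was called at 0.18 ± 0.06 in WT, and the WT call was lost without replicate 3 at 0 h or replicate 1 at 4 h (0.15 and 0.13). With library totals neither WT change of ERCC5 was called, and the value at 4 h turned (0.06 at 3 h and -0.02 at 4 h), so no direction is given for ERCC5 in WT at 4 h. ERCC5 shares all but 1 base of its deposited interval with the read-through gene BIVM-ERCC5, so reads may be split between them, but that gene averaged at most 1.63 CPM in any group.

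At 20 h in DMSO the lines had moved apart. XPC and CETN2 were above their 0 h levels and RAD23B below in all 4 lines, while DDB2, XPA, ERCC1 and ERCC4 were called in opposite directions in different lines. The rises of XPA and ERCC1 in CSB_KO did not pass with library totals. In CSB_KO 6 members rose and 3 fell, against 38.3% and 40.5% of tested genes. In STK19_KO1 4 were called higher and 5 lower (32.1% and 37.0%), where the direction of 1 of the 5, DDB1, did not hold in every alternative, in STK19_KO2 3 rose and 3 fell (33.8% and 37.8%), while WT had 4 that rose and 2 that fell (30% and 25.4%). All 9 changes in CSB_KO differed from those in WT, where 67.2% of tested genes did, and 4 of 9 differed between the STK19 knockouts and WT, where 55.4% did (edgeR interactions). With library totals 2 rose and 3 fell in CSB_KO, 4 were called higher and 5 lower in STK19_KO1, 3 rose and 6 fell in STK19_KO2, and WT had 5 that rose and 2 that fell. DDB1, XPA, ERCC1 and ERCC5 in CSB_KO were then 0.05, 0.13, 0.07 and 0.07 and not called, and of all called genes in CSB_KO 36.3% were higher, where with TMM 48.6% were. That share was 45.5% in STK19_KO1 and 42.7% in STK19_KO2 with library totals (46.5% and 47.2% with TMM). Against WT, 5 of 9 then differed in CSB_KO and 6 of 9 in the STK19 knockouts. The share of all tested genes that differed with library totals is not given, so these counts have no background beside them.

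DDB2 showed the widest split. In CSB_KO it had 15.98, 18 and 14.76 CPM at 20 h, against 20.3, 19.3 and 19.3 CPM at 0 h, a change of -0.27 ± 0.06 (adjusted p = 6.19e-05 by edgeR). In STK19_KO1 it rose by 0.21 ± 0.06 and in STK19_KO2 it changed by -0.26 ± 0.06 (edgeR, adjusted p = 0.000979 and 0.000198). In WT it had 36.8, 37.1 and 35.2 CPM at 20 h, against 22.4, 22.9 and 22.5 CPM at 0 h, a rise of 0.68 ± 0.06 (edgeR, adjusted p = 1.39e-15). Groups did not overlap in any of these lines. The response was below that of WT by -0.95 ± 0.08 in CSB_KO and by -0.70 ± 0.07 in the STK19 knockouts (edgeR interactions, adjusted p = 2.06e-15 and 9.37e-13). Between 4 h and 20 h in DMSO, DDB2 changed by -0.60 ± 0.06 in CSB_KO, -0.57 ± 0.06 in STK19_KO2 and 0.35 ± 0.06 in WT, all called, and by -0.09 ± 0.06 in STK19_KO1, not called. From 4 h to 20 h in DMSO 3 members rose and 2 fell in CSB_KO (34.6% and 37.2% of tested genes), 1 rose and 4 fell in STK19_KO1 (32.3% and 33.4%), 2 rose and 4 fell in STK19_KO2 (31.6% and 34.9%), while WT had 4 that rose and 3 that fell (34.1% and 35.5%). XPA and ERCC1 fell over this interval in STK19_KO1, STK19_KO2 and WT, by 0.57, 0.43 and 0.58 for XPA and by 0.54, 0.40 and 0.56 for ERCC1 on the log2 scale, and neither was called in CSB_KO (0.17 and -0.04), where ERCC1 was called lower with library totals (-0.22). With library totals 2 rose and 4 fell in CSB_KO over this interval, and 5 rose and 2 fell in WT. The share of called genes that were higher was then 37.8% in CSB_KO and 68.7% in WT (48.2% and 49% with TMM).

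XPC, the other p53 target among the members, rose in every line by 20 h. It had 70.0, 67.8 and 68.9 CPM in CSB_KO, against 52.3, 48.8 and 49.2 CPM at 0 h, and 98.1, 99.1 and 98.7 CPM in STK19_KO1, against 82.9, 76.6 and 76.7 CPM at 0 h. It had 65.8, 70.3 and 67.0 CPM in STK19_KO2, against 52.65, 55.3 and 52.95 CPM, and 68.3, 72.1 and 70.6 CPM in WT, against 46.7, 46.5 and 46.0 CPM. No groups overlapped, and the rises were 0.46, 0.33, 0.34 and 0.60, with an SE of 0.04 each (edgeR, largest adjusted p = 2.78e-09). They were smaller than in WT by -0.27 ± 0.05 in the STK19 knockouts (edgeR interaction, adjusted p = 2.6e-05). The smaller gap in CSB_KO, -0.14 ± 0.06 (edgeR interaction, adjusted p = 0.0439), was lost when any of 8 libraries was left out (-0.11 without CSB_KO replicate 1 at 0 h). XPC at 20 h was also above its level at 4 h in DMSO, by 0.53, 0.36, 0.29 and 0.41 in CSB_KO, STK19_KO1, STK19_KO2 and WT.

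RAD23B had its deepest fall in CSB_KO, with 84.4, 88.5 and 83.5 CPM at 20 h, against 195.8, 200.1 and 212.4 CPM at 0 h, a change of -1.25 ± 0.05 (edgeR, adjusted p = 4.02e-30). In STK19_KO1 and STK19_KO2 it stood at 131.5 ± 1.46 and 117.3 ± 0.819 CPM at 20 h, changes of -0.65 ± 0.05 and -0.74 ± 0.05, and in WT at 161.5 ± 2.27 CPM, a change of -0.38 ± 0.05. Each group lay wholly below the 0 h libraries of its line. The fall in CSB_KO was deeper than in WT by -0.87 ± 0.07 and that in the STK19 knockouts by -0.32 ± 0.06 (edgeR interactions, adjusted p = 2.14e-16 and 1.04e-05). At 20 h against 4 h in DMSO RAD23B was lower in CSB_KO, at -0.72 ± 0.05, and higher in STK19_KO2 and WT, at 0.19 ± 0.05 and 0.17 ± 0.05. CETN2 rose by 0.87 ± 0.09 in CSB_KO, to 71.9 ± 1.68 CPM at 20 h against 39.5 ± 1.99 CPM at 0 h (SD, n = 3 each), and by 0.34 ± 0.10, 0.51 ± 0.09 and 0.27 ± 0.09 in STK19_KO1, STK19_KO2 and WT. The rise in CSB_KO exceeded that in WT by 0.60 ± 0.13 (edgeR interaction, adjusted p = 8.84e-05), which with library totals was 0.22 and did not pass (edgeR, adjusted p = 0.106), and the rise in WT did not pass without WT replicate 2 or 3 at 0 h (0.23 and 0.24). The genes of 1 protein complex thus moved in different directions, XPC and CETN2 up and RAD23B down.

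XPA rose in CSB_KO and fell in the other 3 lines, and ERCC1 rose in CSB_KO, but with library totals neither CSB_KO rise passed (0.13 and 0.07; edgeR, adjusted p = 0.221 and 0.318). XPA had 18.5, 16.1 and 17.7 CPM in CSB_KO at 20 h, against 12.5, 13.0 and 13.2 CPM at 0 h, a rise of 0.43 ± 0.10 (edgeR, adjusted p = 5.76e-05). It fell in STK19_KO1, STK19_KO2 and WT, with changes of -0.29 ± 0.10, -0.21 ± 0.10 and -0.36 ± 0.10 (edgeR, adjusted p = 0.00722, 0.0488 and 0.00166). In WT it had 9.27, 9.34 and 9.72 CPM at 20 h, against 13.2, 10.9 and 12.3 CPM at 0 h. The call in STK19_KO2 was lost when any 1 of 5 libraries was left out (-0.17 to -0.22) and that in STK19_KO1 without replicate 1 at 20 h (-0.22). ERCC1 rose in CSB_KO by 0.37 ± 0.06, to 50.1 ± 2.04 CPM at 20 h against 38.7 ± 1.38 CPM at 0 h (SD, n = 3 each), fell in STK19_KO1, with -0.21 ± 0.06, and was not called in STK19_KO2 or WT (-0.06 and -0.04). Without the 5 libraries that lay apart the WT value was -0.13 and passed (edgeR, adjusted p = 0.0377). The gap to WT in CSB_KO was 0.79 ± 0.14 for XPA and 0.42 ± 0.09 for ERCC1 (edgeR interactions, adjusted p = 1.1e-06 and 2.17e-05), and with library totals the ERCC1 gap was 0.05 and did not pass (edgeR, adjusted p = 0.662). POLR1G rose by 1.24 and FOSB by 4.26 in CSB_KO at 20 h, and in WT POLR1G changed by -0.29 and FOSB by 1.44.

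ERCC4, the XPF gene, fell in CSB_KO and STK19_KO1 and rose in WT, with changes of -0.43 ± 0.08, -0.38 ± 0.08 and 0.29 ± 0.08 (edgeR, adjusted p = 2.14e-06, 1.66e-05 and 0.00136). It had 18.02, 20.49 and 19.78 CPM in CSB_KO at 20 h, against 26.1, 26.8 and 26.0 CPM at 0 h, and 34.1, 30.8 and 32.0 CPM in WT, against 28.1, 24.8 and 26.4 CPM at 0 h. The libraries of the 2 times did not overlap in either line. Its response was below that of WT by -0.72 ± 0.11 in CSB_KO and by -0.54 ± 0.09 in the STK19 knockouts (edgeR interactions, adjusted p = 7.67e-08 and 1.71e-06). ERCC5 rose in the 3 knockouts, by 0.37 ± 0.06, 0.24 ± 0.06 and 0.24 ± 0.06, the first of which did not pass with library totals (0.07; edgeR, adjusted p = 0.321), and was not called in WT (0.09 ± 0.06), where it passed at 0.14 without the 5 libraries that lay apart (edgeR, adjusted p = 0.02) and at 0.16 with library totals (edgeR, adjusted p = 0.0215). DDB1 rose in CSB_KO by 0.35 ± 0.04, which was 0.05 and did not pass with library totals (edgeR, adjusted p = 0.3). In STK19_KO2, where DDB1, ERCC1 and ERCC4 were not called (-0.03, -0.06 and -0.13), all 3 were called lower with library totals (-0.10, -0.14 and -0.21). In STK19_KO1 its fall of -0.09 ± 0.04 (edgeR, adjusted p = 0.0179) was 0.0016 when no filter on low counts preceded the scaling (DDB1, 20 h DMSO vs 0 h, STK19_KO1), and was lost without replicate 1 at 0 h or replicate 3 at 20 h (-0.07 and -0.09), so no direction is given for it.

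**Figure D3:**
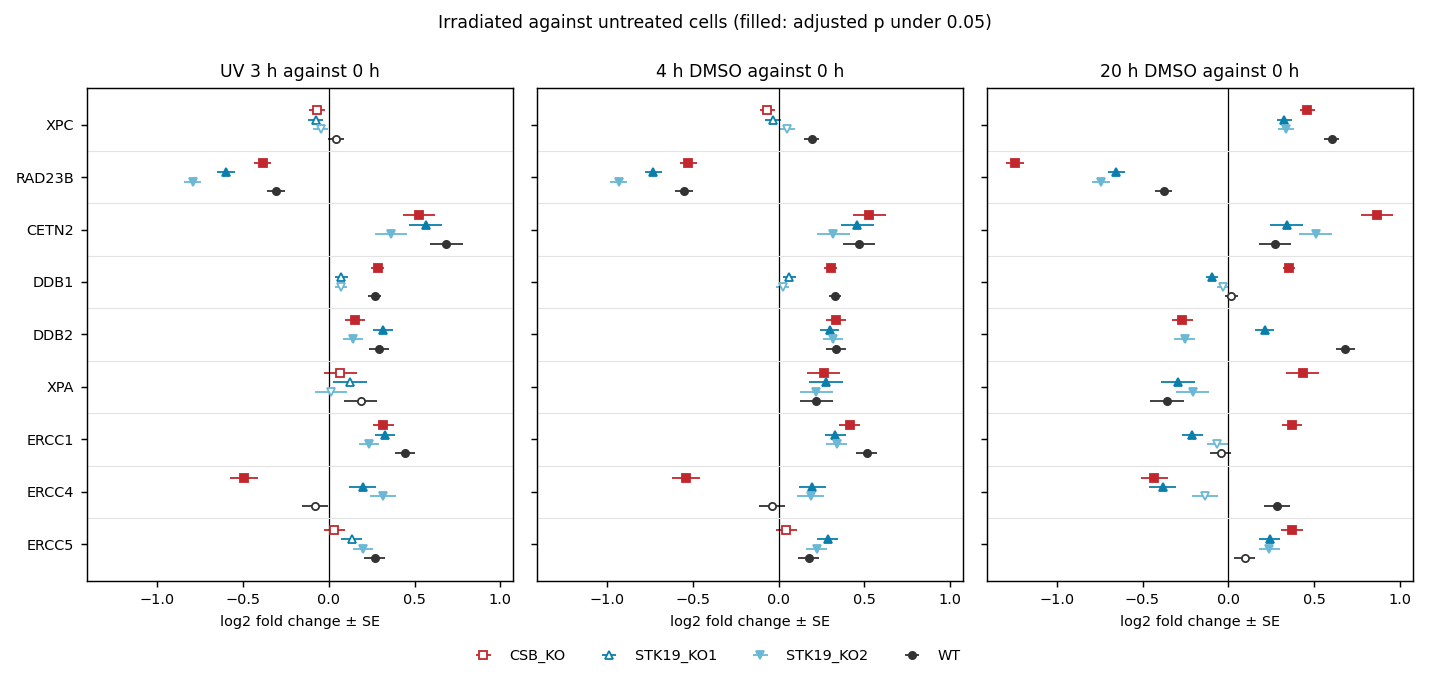
Log2 fold change ± SE of each member against 0 h at 3 h, at 4 h in DMSO and at 20 h in DMSO, in CSB_KO, STK19_KO1, STK19_KO2 and WT; filled symbols passed an adjusted p of 0.05. RAD23B lies left of 0 in every panel and line, and at 20 h the lines fan out, with DDB2 at -0.27 in CSB_KO and 0.68 in WT.

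Since genes of different span responded differently to UV in these cells, the members were set beside all tested genes of like genomic span. At 3 h the median log2 change in CSB_KO was 0.40 for genes under 10 kb, 0.21 for 10 to 30 kb and -0.10 for 30 to 100 kb, and in WT it was 0.40, 0.25 and -0.09. At 20 h in DMSO these medians were 0.73, 0.43 and -0.25 in CSB_KO and 0.21, 0.17 and 0.04 in WT. CETN2, the shortest member at 3.76 kb, had changes of 0.53 and 0.87 in CSB_KO at the 2 times, and RAD23B, at 49.1 kb, had -0.38 and -1.25. In CSB_KO at 20 h RAD23B lay below the lower quartile of its class (-0.82), and CETN2 lay between the quartiles of its class (0.07 and 1.42). DDB2 and XPA, at 24.8 and 22.4 kb, share a class but differed in CSB_KO at 20 h, with DDB2 at -0.27 below the lower quartile (-0.15) and XPA at 0.43, close to the median. ERCC4, ERCC5, XPC, DDB1 and ERCC1, at 32.2, 30.2, 33.5, 43.1 and 71.5 kb, fall in the same class as RAD23B, ERCC5 only just, and in CSB_KO at 20 h ranged between -0.43 for ERCC4 and 0.46 for XPC. The upper quartile of the class was 0.36, below XPC, ERCC1 and ERCC5. The principal transcript of ERCC1 covers only 17.0 kb of its interval. The median over the 9 members was 0.37 in CSB_KO at 20 h, beside -0.01 over all tested genes, and 0.09 in WT, beside 0.05.

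**Figure D4:**
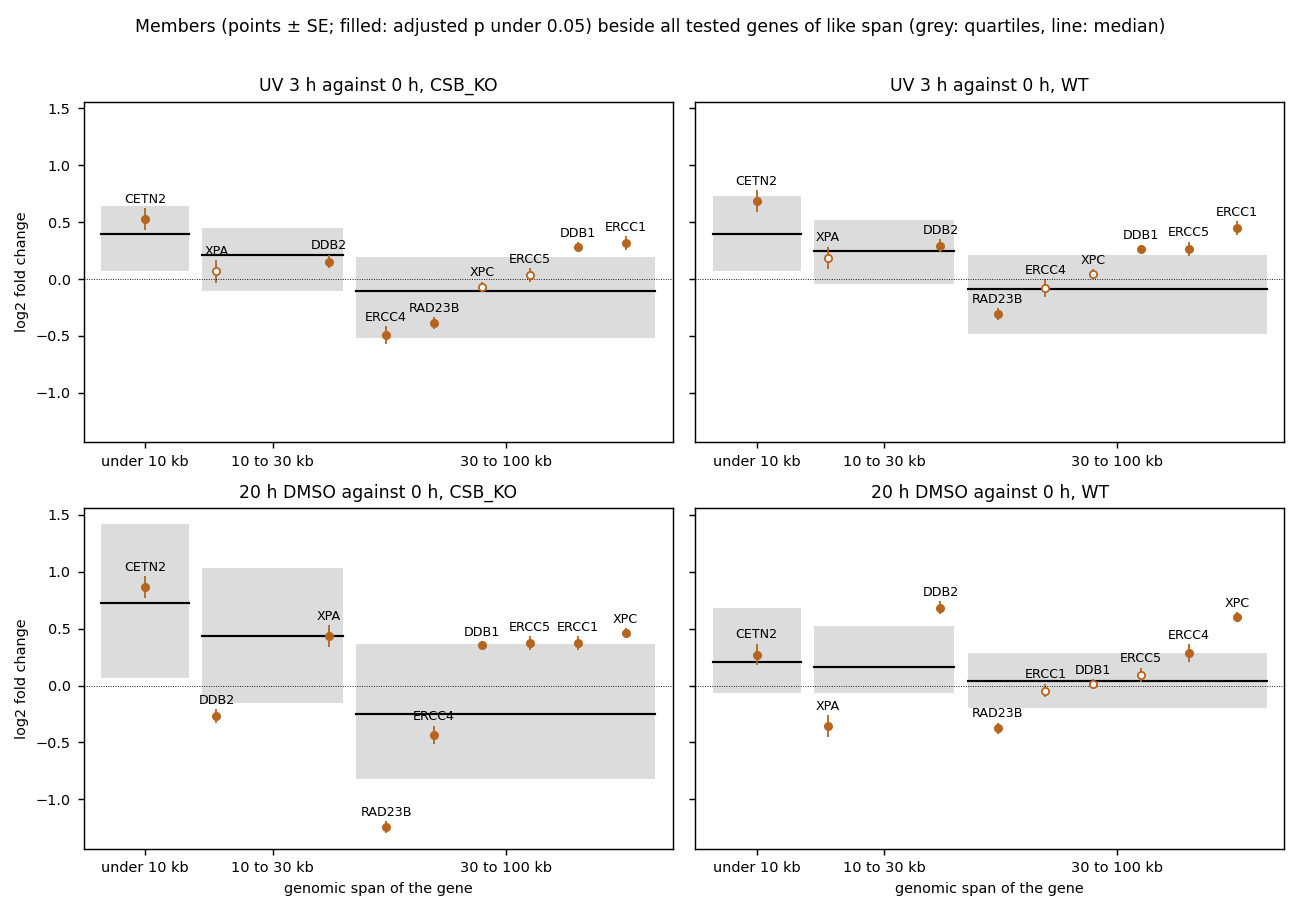
Log2 fold change of the members (points ± SE, filled where adjusted p was under 0.05) beside the quartiles (grey) and median (line) of all tested genes in 3 classes of genomic span, at 3 h (top) and 20 h in DMSO (bottom) against 0 h, in CSB_KO (left) and WT (right). In CSB_KO at 20 h RAD23B at -1.25 lies below the quartiles of its class, and XPC at 0.46 above them.

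The series was made to ask what ATR inhibition does after UV. At 4 h no member was called in any line between ATRi and DMSO. Over the 36 tests the log2 differences lay between -0.10 and 0.11, the lowest adjusted p was 0.216 by edgeR, 4 of 36 had an unadjusted p under 0.05, and DESeq2 also called 0 of 36. The 95% intervals of all 36 differences lay within -0.28 to 0.29, so larger effects at 4 h are outside them. Of all tested genes 2.70% were called higher and 0.278% lower in CSB_KO, 0.776% and 0.129% in STK19_KO1, 0.194% and 0.0259% in STK19_KO2, and 2.03% and 0.627% in WT. Without the libraries that lay apart, DDB1 in WT was called, at -0.10 (edgeR, adjusted p = 0.0135). With library totals 0 of 36 were called, and of all called genes in WT 92% were higher, where with TMM 76.4% were.

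At 20 h the inhibitor separated the members. In STK19_KO1, STK19_KO2 and WT the same 6 members were higher in ATRi than in DMSO (XPC, DDB2, XPA, ERCC1, ERCC4 and ERCC5) and the same 2 lower (RAD23B and CETN2). These lines had 31.5%, 30.5% and 30.2% of all tested genes called higher and 30.1%, 27.7% and 33.7% called lower. In CSB_KO 3 members were higher (XPC, ERCC1 and ERCC4) and 1 lower (RAD23B), where 14.1% and 17.5% of tested genes were. With library totals the same members were called, other than DDB2 in STK19_KO2, and of all called genes in CSB_KO 55.8% were higher, where with TMM 44.6% were. DDB1 was not called in any line, with differences between -0.03 and 0.06, although in WT it passed at 0.07 without the 5 libraries that lay apart (edgeR, adjusted p = 0.0131). The median over the 9 members was 0.06 in CSB_KO, 0.30 in STK19_KO1, 0.38 in STK19_KO2 and 0.40 in WT, beside 0.01, 0.02, 0.03 and -0.03 over all tested genes.

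XPA was higher in ATRi in the 3 lines other than CSB_KO. In CSB_KO the groups overlapped, with 21.4, 17.1 and 17.6 CPM in ATRi against 18.5, 16.1 and 17.7 CPM in DMSO, and the gene was not called (0.10 ± 0.10). In STK19_KO1 it had 18.4, 18.6 and 21.7 CPM in ATRi, against 9.67, 10.7 and 11.4 CPM in DMSO, and in STK19_KO2 21.1, 21.9 and 20.4 CPM in ATRi, against 11.7, 11.2 and 11.7 CPM in DMSO. The log2 differences were 0.89 ± 0.10 and 0.88 ± 0.10. WT had 21.05, 18.01 and 18.27 CPM in ATRi, against 9.27, 9.34 and 9.72 CPM in DMSO, a log2 difference of 1.01 ± 0.10 (edgeR, adjusted p = 1.11e-13), and in these 3 lines every ATRi library lay above every DMSO library. The difference in CSB_KO was below that in WT by -0.91 ± 0.14 (edgeR interaction, adjusted p = 9.55e-08). In ATRi all 4 lines stood close together at 18.7 to 21.1 CPM, and in DMSO CSB_KO stood apart at 17.4 CPM, where the other lines had 9.44 to 11.5 CPM.

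ERCC4 was higher in ATRi in all 4 lines, most in the STK19 knockouts. It had 54.1, 47.8 and 48.2 CPM in ATRi in STK19_KO1, against 24.8, 22.9 and 23.7 CPM in DMSO, and 47.9, 53.1 and 52.2 CPM in STK19_KO2, against 28.6, 27.7 and 28.0 CPM. It had 31.3, 28.3 and 23.7 CPM in ATRi in CSB_KO, against 18.02, 20.49 and 19.78 CPM in DMSO, and 41.2, 46.1 and 44.4 CPM in WT, against 34.1, 30.8 and 32.0 CPM. No groups overlapped, and the differences were 0.51 ± 0.08 in CSB_KO, 1.07 ± 0.08 in STK19_KO1, 0.86 ± 0.08 in STK19_KO2 and 0.45 ± 0.08 in WT (edgeR, largest adjusted p = 8.38e-07). The STK19 knockouts exceeded WT by 0.52 ± 0.09 (edgeR interaction, adjusted p = 6.9e-06). In CSB_KO ERCC5 was not called, with 51.7, 53.8 and 50.1 CPM in ATRi overlapping 56.5, 53.6 and 53.8 CPM in DMSO. It was higher by 0.46 ± 0.06 in STK19_KO1 and 0.45 ± 0.06 in STK19_KO2. In WT it had 62.2, 64.5 and 61.2 CPM in ATRi, against 39.9, 38.2 and 41.2 CPM in DMSO, a difference of 0.65 ± 0.06 (edgeR, adjusted p = 4.29e-14). The difference in CSB_KO was below that of WT by -0.73 ± 0.09 (edgeR interaction, adjusted p = 2.93e-10). ERCC1 was higher by 0.19 ± 0.06, 0.30 ± 0.06, 0.38 ± 0.06 and 0.41 ± 0.06 in CSB_KO, STK19_KO1, STK19_KO2 and WT, and the call in CSB_KO (edgeR, adjusted p = 0.0114) was lost without DMSO replicate 2 or ATRi replicate 3 (0.15 and 0.17). FOSB was higher in ATRi by 0.37 to 0.99 in the 4 lines, and POLR1G was lower in CSB_KO by -0.13 and higher by 0.13 to 0.63 in the others.

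Of the XPC complex, XPC was higher in CSB_KO by 0.12 ± 0.04 (edgeR, adjusted p = 0.0294), a call that was lost when any 1 of 3 libraries was left out (0.10 without ATRi replicate 3). It reached 123.2, 120.8 and 124.9 CPM in ATRi in STK19_KO1, against 98.1, 99.1 and 98.7 CPM in DMSO, and 88.9, 89.3 and 94.4 CPM in STK19_KO2, against 65.8, 70.3 and 67.0 CPM, differences of 0.32 ± 0.04 and 0.42 ± 0.04. In WT XPC had 83.1, 83.0 and 81.3 CPM in ATRi, against 68.3, 72.1 and 70.6 CPM in DMSO, a difference of 0.23 ± 0.04 (edgeR, adjusted p = 9.33e-06). RAD23B was lower in ATRi in all 4 lines, with 66.3 ± 2.73 CPM in CSB_KO, 86.7 ± 2.84 CPM in STK19_KO1, 86.2 ± 2.82 CPM in STK19_KO2 and 116.4 ± 8.25 CPM in WT (SD, n = 3 each). In DMSO it had 85.5 ± 2.64, 131.5 ± 1.46, 117.3 ± 0.819 and 161.5 ± 2.27 CPM in these lines. No groups overlapped, the differences were -0.37, -0.60, -0.44 and -0.47 with an SE of 0.05 each (edgeR, largest adjusted p = 4.71e-08), and the interaction tests against WT did not pass (adjusted p = 0.242 for CSB_KO and 0.544 for the STK19 knockouts by edgeR), although with library totals that for CSB_KO was 0.25 and passed (edgeR, adjusted p = 0.00163). CETN2 was lower by -0.45 ± 0.09 in STK19_KO1, -0.52 ± 0.10 in STK19_KO2 and -0.33 ± 0.10 in WT, which brought it to 31.3, 35.4 and 42.5 CPM. In CSB_KO it had 69.1, 60.5 and 66.0 CPM in ATRi, against 70.1, 73.4 and 72.3 CPM in DMSO, without overlap, and the difference of -0.14 ± 0.09 was not called, but passed at -0.14 without the 5 libraries that lay apart (edgeR, adjusted p = 0.0167).

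DDB2 was not called in CSB_KO (0.06 ± 0.06). It was higher by 0.24 ± 0.06 in STK19_KO1 and by 0.14 ± 0.06 in STK19_KO2, where the call ended when any of its 6 libraries was left out (0.13 to 0.16) or with library totals (0.09). In WT it had 46.2, 49.6 and 48.0 CPM in ATRi, against 36.8, 37.1 and 35.2 CPM in DMSO, a difference of 0.40 ± 0.06 (edgeR, adjusted p = 9.51e-09). The difference in CSB_KO was below that of WT by -0.34 ± 0.08 (edgeR interaction, adjusted p = 0.000496), and with library totals by -0.19, which did not pass (edgeR, adjusted p = 0.0508).

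**Figure D5:**
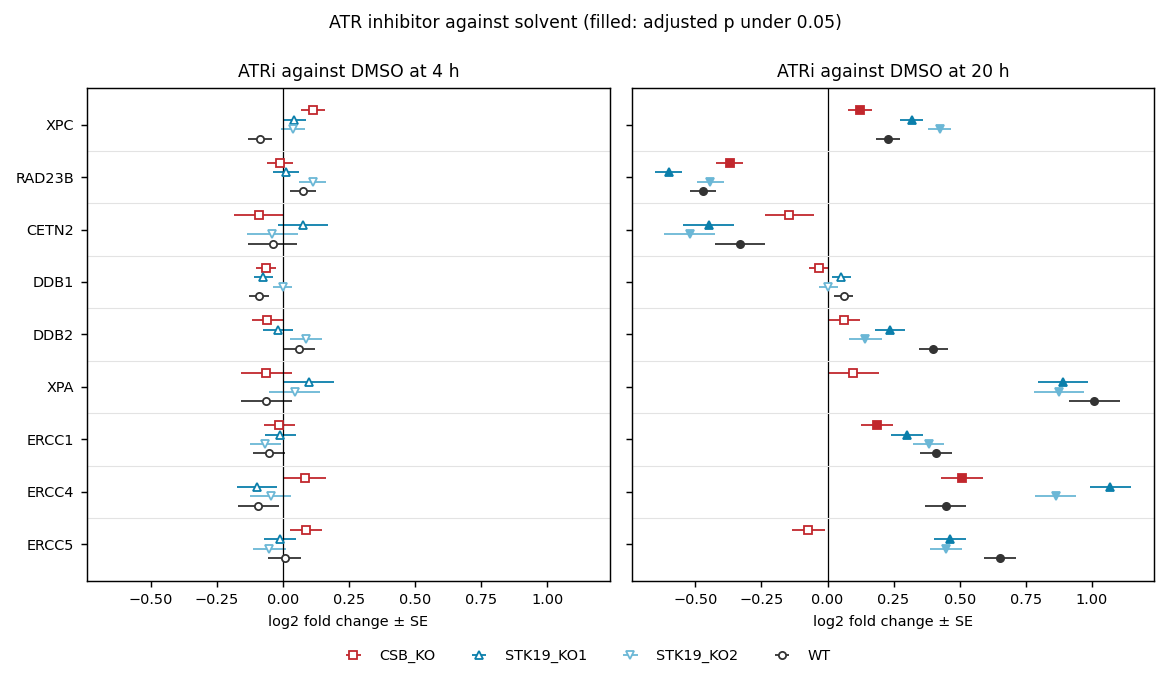
Log2 fold change ± SE of each member in ATRi against DMSO at 4 h (left) and 20 h (right) in CSB_KO, STK19_KO1, STK19_KO2 and WT; filled symbols passed an adjusted p of 0.05. No symbol is filled at 4 h, and at 20 h XPA and ERCC5 lie near 0 in CSB_KO while the other 3 lines lie between 0.45 and 1.01.

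The neighbouring steps of the pathway were counted for context, from lists of other repair genes. At 20 h in DMSO 38.3% of all tested genes rose and 40.5% fell in CSB_KO, and 30% rose and 25.4% fell in WT. In STK19_KO1 32.1% rose and 37% fell, and in STK19_KO2 33.8% rose and 37.8% fell. With ATRi at 20 h 14.1% were higher and 17.5% lower in CSB_KO, 31.5% and 30.1% in STK19_KO1, 30.5% and 27.7% in STK19_KO2, and 30.2% and 33.7% in WT. Of the 10 TFIIH subunits, which open the helix, 1 rose and 8 fell in CSB_KO at 20 h in DMSO, with a median of -0.42 beside -0.01 over all tested genes, and 2 rose and 2 fell in WT, with a median of 0.01 beside 0.05. In each STK19 knockout 2 rose and 6 fell. The TFIIH medians were -0.40 in STK19_KO1 and -0.31 in STK19_KO2, beside -0.02 over all tested genes in each. With library totals 1 TFIIH gene rose and 9 fell in CSB_KO, and 3 rose and 2 fell in WT. With ATRi at 20 h, 3 of 10 were higher and 2 lower in CSB_KO, 3 and 2 in STK19_KO1, 5 and 2 in STK19_KO2, and 8 and 1 in WT, where GTF2H1, the p62 subunit, led with 0.62 ± 0.06. Of CUL4A, CUL4B and RBX1, which form the ubiquitin ligase that UV-DDB joins, all 3 fell in each knockout line at 20 h in DMSO, with CUL4A at -1.06 ± 0.04, CUL4B at -0.92 ± 0.07 and RBX1 at -0.24 ± 0.10 in CSB_KO. In WT RBX1 fell, at -0.45 ± 0.10, and CUL4A and CUL4B were not called (-0.03 and -0.05). With ATRi all 3 were lower than in DMSO at 20 h in STK19_KO1, STK19_KO2 and WT, and CUL4A and RBX1 in CSB_KO. Of 17 genes for resynthesis and ligation, 5 were higher and 1 lower in ATRi in CSB_KO (8 and 1 with library totals), 11 and 3 in STK19_KO1, 11 and 3 in STK19_KO2, and 12 and 3 in WT, where RFC2, a subunit of the clamp loader, led with 1.00 ± 0.05. With library totals these counts were 10 and 4 in STK19_KO1, 11 and 4 in STK19_KO2 and 12 and 4 in WT. Of the 3 RPA subunits, which hold the open strand, RPA2 was higher in ATRi by 0.12 ± 0.04 in CSB_KO, 0.74 ± 0.04 in STK19_KO1, 0.47 ± 0.04 in STK19_KO2 and 0.84 ± 0.04 in WT. RPA1 was lower in all 4 lines, but in CSB_KO not with library totals (-0.06). Of 6 factors of the transcription-coupled branch, 4 rose and 2 fell in each knockout line at 20 h in DMSO, and 5 rose and 1 fell in WT. XAB2 led in CSB_KO, at 2.11 ± 0.10. The 6 include the targeted genes, ERCC6 and STK19. In CSB_KO ERCC6 RNA averaged 6.97 ± 0.611 CPM at 0 h and 11.5 ± 1.11 CPM at 20 h in DMSO (SD, n = 3 each). Of 28 p53 targets other than DDB2 and XPC, 20 rose and 4 fell in CSB_KO at 20 h in DMSO (16 and 6 with library totals), with a median of 0.62, and 24 rose in WT, with a median of 0.59. In STK19_KO1 22 of the 28 rose and 0 fell, and in STK19_KO2 20 rose and 2 fell (18 and 2 with library totals). DDB2 fell in CSB_KO and STK19_KO2 and rose in STK19_KO1 and WT, and the part of p53 in its values was not tested. GADD45A, a p53 target that responds to growth arrest and DNA damage, rose most of the 28 in each line, by 3.33 ± 0.06 in CSB_KO, 2.23 ± 0.05 in STK19_KO1, 2.92 ± 0.06 in STK19_KO2 and 1.71 ± 0.05 in WT. With ATRi at 20 h 2 of the 28 were higher and 11 lower in CSB_KO (4 and 8 with library totals), 7 and 11 in STK19_KO1 (5 and 12 with library totals), 8 and 10 in STK19_KO2, and 7 and 8 in WT (6 and 13 with library totals).

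Over the 24 group means of log2 CPM, the member pair with the highest correlation was XPC with ERCC5 (Pearson r = 0.77), followed by CETN2 with DDB1 (0.76) and ERCC4 with ERCC5 (0.70). The lowest values were ERCC5 with RAD23B (-0.70) and XPA with RAD23B (-0.68), and the partners XPC and RAD23B had -0.51. Groups share lines and conditions, so these values are a description only. Among 9943 other genes with a mean log2 CPM of at least 3, the profile most like that of XPC was MKRN2 (r = 0.96), that of RAD23B SLC22A23 (0.95), that of CETN2 GGH (0.94) and that of DDB1 PARK7 (0.92). The closest profile was MAN2A2 for DDB2 (0.86), CPSF4 for XPA (0.87), ITGAE for ERCC1 (0.96), CEP95 for ERCC4 (0.90) and ZNF799 for ERCC5 (0.95). DDB2 had the least close neighbour of the 9.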

How the data were processed

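Polyadenylated RNA of 72 libraries (24 groups of 3) was measured. The deposited table holds expected counts per gene, estimated with RSEM after STAR alignment to GRCh38, per the submitters' processing notes, which give no versions for these tools; the values are whole numbers, so none was rounded. The library kit was directional, per the labels' protocols, but no source used here gives the strand setting of the counting. The deposited counts were analysed with edgeR 4.0.16 in R 4.3.3. Genes were filtered with filterByExpr (minimum count 10, minimum total count 15) and library sizes scaled by TMM. One quasi-likelihood fit covered all 24 groups, and p-values were adjusted by Benjamini-Hochberg over all 15470 genes tested, with a call at an adjusted p under 0.05. Errors of log2 changes are standard errors. CPM are TMM-scaled. Interactions compared responses with WT, for CSB_KO and for the mean of both STK19 knockouts. Alternatives were DESeq2 1.42.0 (size factors, and its Wald test), library totals in place of TMM, no filter, a fold threshold of 1.5, replicate number as a block, fits of single lines, and leaving out libraries. The scripts were tested on simulated data in which few genes changed, in WT at 20 h in DMSO only. That does not test the scaling where most genes change. Genes were named by a rule: all 9 members, the targeted genes, the closest profiles over the 24 groups, and the list genes with the largest called rise or fall. Genes that overlap a member were named after their values were seen. One gene of the lists is not reported here. The members and lists were chosen with earlier results of these data known. Replicate numbers were not treated as pairs, since in 0 of 27 comparisons did every same-numbered pair of libraries have a correlation over 0.1 (range -0.066 to 0.256). This rule needs every pair to pass, so it cannot show whether 1 replicate number carried a shared effect. In WT the pair of replicate 1 had 0.256 for 3 h against 0 h and 0.184 for 4 h in DMSO against 0 h.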

Additional observations from a re-analysis of the deposited data

Results flagged for a closer look

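For 30 of 90 member interactions, the change in a knockout differed from the change in WT by edgeR's quasi-likelihood interaction test, which set each one apart here. The background differed much between comparisons: 9.78% of all tested genes differed in CSB_KO and 27.2% in the STK19 knockouts at 3 h, 16.4% and 26.6% at 4 h in DMSO, 67.2% and 55.4% at 20 h in DMSO, 3.20% and 0.00646% for ATRi at 4 h, and 51.6% and 40.9% for ATRi at 20 h.

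At 3 h against 0 h, the log2 change in CSB_KO minus that in WT was -0.41 for ERCC4. At 3 h against 0 h, the log2 change in the STK19 knockouts minus that in WT was -0.39 for RAD23B, -0.20 for DDB1 and 0.34 for ERCC4. At 4 h in DMSO against 0 h, the log2 change in CSB_KO minus that in WT was -0.26 for XPC and -0.50 for ERCC4. At 4 h in DMSO against 0 h, the log2 change in the STK19 knockouts minus that in WT was -0.18 for XPC, -0.28 for RAD23B and -0.28 for DDB1. At 20 h in DMSO against 0 h, the log2 change in CSB_KO minus that in WT was -0.14 for XPC, -0.87 for RAD23B, 0.60 for CETN2, 0.34 for DDB1, -0.95 for DDB2, 0.79 for XPA, 0.42 for ERCC1, -0.72 for ERCC4 and 0.28 for ERCC5. At 20 h in DMSO against 0 h, the log2 change in the STK19 knockouts minus that in WT was -0.27 for XPC, -0.32 for RAD23B, -0.70 for DDB2 and -0.54 for ERCC4. In ATRi against DMSO at 20 h, the log2 change in CSB_KO minus that in WT was -0.34 for DDB2, -0.91 for XPA, -0.22 for ERCC1 and -0.73 for ERCC5. In ATRi against DMSO at 20 h, the log2 change in the STK19 knockouts minus that in WT was 0.14 for XPC, -0.21 for DDB2, 0.52 for ERCC4 and -0.20 for ERCC5. The CSB_KO interactions of XPC at 20 h and of ERCC1 with ATRi, and the STK19 interactions of XPC and ERCC5 with ATRi, were lost when any of 3 to 8 single libraries was left out. With library totals in place of TMM, interactions that did not pass were, in CSB_KO, ERCC4 at 3 h, XPC at 4 h, CETN2, DDB1, ERCC1 and ERCC5 at 20 h, and DDB2 and ERCC1 with ATRi. In the STK19 knockouts they were DDB1 at 3 h, XPC, RAD23B and DDB1 at 4 h, and DDB2 and ERCC5 with ATRi. Other interactions appeared with library totals and are not all named. In the STK19 knockouts 2 were above WT at 4 h in DMSO, where 0 were with TMM. In CSB_KO 2 were above WT with ATRi at 20 h, where 0 were with TMM. Of all called interactions in CSB_KO, the share above WT was then 38.8% at 3 h, 53.5% at 4 h, 27.2% at 20 h and 64.2% with ATRi at 20 h (15.1%, 31%, 46% and 47.9% with TMM). In the STK19 knockouts it was 87.1%, 88%, 30.2% and 61.6% (37.1%, 44.9%, 41.1% and 50.6% with TMM). None of the 18 interactions with ATRi at 4 h was called by edgeR, with either scaling (of all called genes in CSB_KO 56.2% were above WT with library totals and 72.7% with TMM). Without the 5 libraries that lay apart, that of XPC in CSB_KO was called, at 0.20 (edgeR interaction, adjusted p = 0.0206). Calls also appeared then with ATRi at 20 h, for CETN2 (0.18) and DDB1 (-0.09) in CSB_KO and CETN2 (-0.16) in the STK19 knockouts. At 3 h XPC in the STK19 knockouts was called as well (-0.16). No explanation was tested for any of these differences.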

How the results depend on the processing

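Of 333 member tests, 314 kept direction and side of the threshold under DESeq2 size factors, 314 under the DESeq2 Wald test, 318 with no filter, 315 in fits of the lines concerned and 277 with library totals in place of TMM; DDB1 at 20 h in DMSO in STK19_KO1 turned to 0.0016 with no filter (DDB1, 20 h DMSO vs 0 h, STK19_KO1). With a fold of at least 1.5 as well, the members higher and lower, summed over lines, numbered 1 and 2 at 3 h (18 and 5 without it), 0 and 2 at 4 h in DMSO (24 and 5), 3 and 3 at 20 h in DMSO (17 and 13), 0 and 2 at 20 h against 4 h (10 and 13), 6 and 1 for ATRi at 20 h (21 and 7), 3 and 1 for knockouts at 0 h (14 and 4) and 2 and 6 for interactions (8 and 22). The share of all tested genes past both thresholds is not given, so the drop in these counts cannot be called particular to the members. Libraries were left out singly, on the dispersion trend of all libraries, or by replicate number, with filter, scaling and trend run anew. Higher and lower then ranged over 13 to 20 and 5 to 5 at 3 h, 17 to 24 and 5 to 5 at 4 h, 16 to 18 and 10 to 13 at 20 h, 9 to 12 and 13 to 14 at 20 h against 4 h, 18 to 21 and 6 to 8 for ATRi at 20 h, 7 to 14 and 2 to 4 for knockouts and 5 to 9 and 12 to 24 for interactions. For ATRi at 4 h they stayed 0 and 0. The knockout count fell to 9 higher without WT replicate 2 at 0 h. Without the 5 libraries that lay apart, 1 member was lower with ATRi at 4 h (DDB1 in WT). With library totals 9 members were lower at 3 h and 14 for interactions. Values that turned with library totals were -0.16 for XPC at 3 h, -0.0079 for XPC and -0.023 for ERCC5 at 4 h and 0.18 for ERCC5 at 20 h against 4 h, all in WT, -0.13 for DDB1 in CSB_KO at 20 h against 4 h, and the CSB_KO interactions of DDB1 and ERCC5 at 20 h (-0.0359 and -0.0947). The causes were not tested.

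With the replicate number as a block, the counts were 19 and 5 at 3 h, 24 and 5 at 4 h, 17 and 13 at 20 h, 10 and 13 at 20 h against 4 h, 0 and 0 for ATRi at 4 h, 21 and 7 for ATRi at 20 h, 14 and 4 for knockouts and 9 and 25 for interactions; 5 of 333 tests gained a call and 0 lost one.

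With 3 libraries a group, calls of small changes are not firm: 89 losses and 22 gains of a call, over 37 tests, came from leaving out single libraries. CPM without TMM moved by more than 1 SD in 109 of 216 group means.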
